A study of Mus musculus with 6 samples.

Results

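The genes of mitosis and of the spindle checkpoint were compared between haploid and diploid mouse embryonic stem (ES) cells. The list held 36 genes chosen by function, and 35 of them were among the 18193 genes measured; the mitotic cyclin Ccnb1 had no probe set with a single gene symbol and was not analysed here. Each gene was taken as its probe set with the highest mean over the 6 Affymetrix arrays, and all 35 of these probe sets lay above the median level of all genes. The functional sets were mitotic entry, the spindle checkpoint, the kinetochore and chromosome, the chromosomal passenger complex, spindle motors, and cytokinesis.

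The haploid group was 3 mouse ES cell lines, each on 1 array: haploid replicate 1 (line HAP1, F1 CBAxB6, passage 24), haploid replicate 2 (line HAP2, F1 CBAxB6, passage 21) and haploid replicate 3 (line HTG1, of mixed transgenic background, passage 11). The diploid group was 3 male ES cell samples, with strain 129Sv for diploid replicates 1 and 2 and 129 for replicate 3. All grew in 2i medium (with MEK and GSK3 kinase inhibitors), and RNA was taken on day 2 after passaging. Strain, cell line and sex chromosome content differ along with ploidy, so that their parts in any difference cannot be told apart. The transgene of HTG1, the passage of the diploid samples and the share of cells still haploid at harvest are not stated in the labels. Haploid ES cells tend to become diploid in culture, and the comparison asks whether the genes that run chromosome segregation differ in level between the groups. Whether the 3 diploid samples came from separate lines is not stated, and p-values then measure only the spread between these samples.

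At the entry into mitosis, cyclin B and cyclin A bind the kinase Cdk1, and the kinases Plk1 and Aurka drive spindle assembly. The spindle checkpoint, built from Mad2l1, Bub1b, Bub3 and Cdc20, holds back the anaphase-promoting complex (APC/C), a ubiquitin ligase, until each kinetochore is attached to microtubules. Most of these genes are transcribed late in the cell cycle, so that their level in a bulk sample depends both on how many cells are in G2 and mitosis and on the RNA per cell, and array values of a whole culture cannot tell these apart. Many of their promoters carry a CHR element, TTTGAA, bound by the MuvB complex, and CCAAT boxes, bound by NF-Y.

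Promoters of 29 of the 36 genes were found in the RefSeq table (GRCm38.p6), each running from 250 bases before to 50 bases after the annotated start. The letters TTTGAA, on either strand, were in the promoters of 21 of these 29 genes (72.4%), against 20.2% of 27025 genes with a promoter. The letters CCAAT, on either strand, were in 23 of 29 (79.3%), against 41.1% of all. Both were present in 19 of 29 (65.5%), against 7.97% of all; the variant TTCGAA was in 3 of 29 (10.3%), against 1.8%. All 9 genes that differed between haploid and diploid cells in the test described below had TTTGAA, 6 higher and 3 lower in haploid cells. Since none of the 9 lacked these letters, their presence could not be set against direction. In the sequences below, TTTGAA and CCAAT (or TTCAAA and ATTGG, the same motifs on the other strand) are in capitals. As examples, 3 promoters of genes higher in haploid cells are given first and 2 of genes lower in haploid cells after them. Each is given as the 180 bases from 130 before the start. They lie at chr10:69352863-69353042 (minus strand) for Cdk1, chr4:118437294-118437473 (minus) for Cdc20, chr9:61946750-61946929 (minus) for Kif23, chr9:83834559-83834738 (plus) for Ttk and chr11:40733388-40733567 (minus) for Hmmr.
Cdk1: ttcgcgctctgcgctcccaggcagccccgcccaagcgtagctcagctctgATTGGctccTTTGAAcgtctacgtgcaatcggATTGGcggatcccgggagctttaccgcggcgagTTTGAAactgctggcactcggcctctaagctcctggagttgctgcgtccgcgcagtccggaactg
Cdc20: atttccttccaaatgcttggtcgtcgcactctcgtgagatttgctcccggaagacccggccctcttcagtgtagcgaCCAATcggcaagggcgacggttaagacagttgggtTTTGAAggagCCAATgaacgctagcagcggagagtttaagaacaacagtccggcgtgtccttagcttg
Kif23: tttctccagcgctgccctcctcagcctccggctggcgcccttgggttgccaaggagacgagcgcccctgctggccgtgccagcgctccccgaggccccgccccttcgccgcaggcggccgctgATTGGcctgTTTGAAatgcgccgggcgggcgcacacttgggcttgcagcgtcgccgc
Ttk: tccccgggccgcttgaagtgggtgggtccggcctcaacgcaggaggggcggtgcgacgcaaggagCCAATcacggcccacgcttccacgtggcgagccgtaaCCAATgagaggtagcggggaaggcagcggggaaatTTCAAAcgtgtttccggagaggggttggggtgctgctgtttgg
Hmmr: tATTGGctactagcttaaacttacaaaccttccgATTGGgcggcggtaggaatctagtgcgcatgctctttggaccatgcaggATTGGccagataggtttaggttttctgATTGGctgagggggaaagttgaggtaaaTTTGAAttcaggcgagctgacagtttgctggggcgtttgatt

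Across the 35 genes, haploid cells showed no common shift of the mitotic programme. The kinases Cdk1 and Aurka, the APC/C activator Cdc20, the centromeric histone Cenpa, the midzone motor Kif23 and the midzone bundler Prc1 rose in haploid cells, by 1.26-fold to 1.58-fold. The checkpoint kinase Ttk, the kinetochore subunit Ndc80 and the spindle protein Hmmr fell, each by about 1.5-fold. The other 26 did not pass. Levels are log2 values, and genes were tested with limma over all 18193 genes at a Benjamini-Hochberg adjusted p of 0.05. Of all genes, 7.92% were higher and 6.96% lower in haploid cells by the same rule, and among the 9097 genes above the median level 12.7% and 9.21% were. The members' shares of 6 in 35 (17.1%) and 3 in 35 (8.57%) differ from those of genes above the median level by 4.47 and -0.641 percentage points.

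The median log2 difference (haploid minus diploid) of the 35 genes was -0.02, against -0.03 over all genes and 0.04 over genes above the median level. The differences ran from -0.59 to 0.66, with 17 above and 18 below 0. A change of 1.5-fold was reached by 2 of 35, against 2488 of all 18193 genes and 1654 of the 9097 genes above the median level. In 11 of 35 genes every haploid value lay above every diploid value (31.4%, against 17.7% of all genes), and in 10 every haploid value lay below (28.6%, against 20.2%). Genes above the median level separated more often too, 26.2% with haploid above and 21.4% with haploid below.

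**Figure D1:**
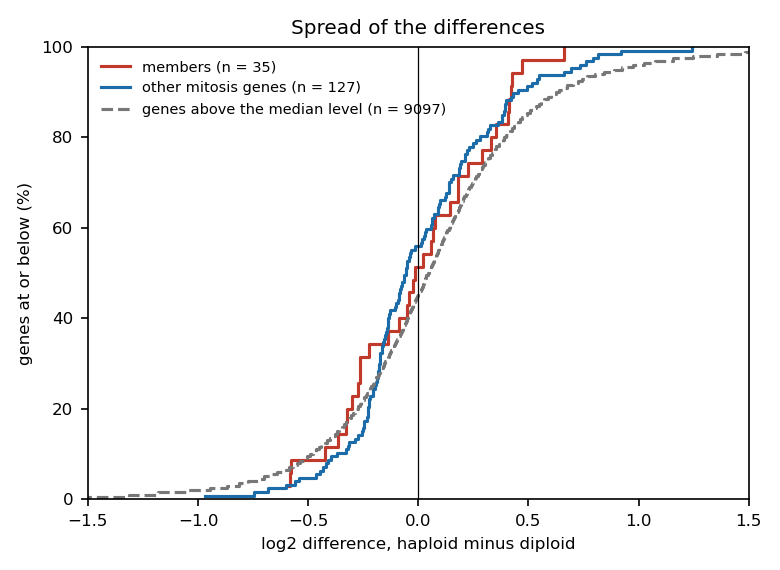
Cumulative share of genes (vertical axis, percent) against the log2 difference, haploid minus diploid (horizontal axis), for the 35 measured members, the 127 other mitosis genes and the 9097 genes above the median level. All 3 curves cross 50% close to 0, and the median absolute difference was 0.273 for the members and 0.262 for the genes above the median level.

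**Figure D2:**
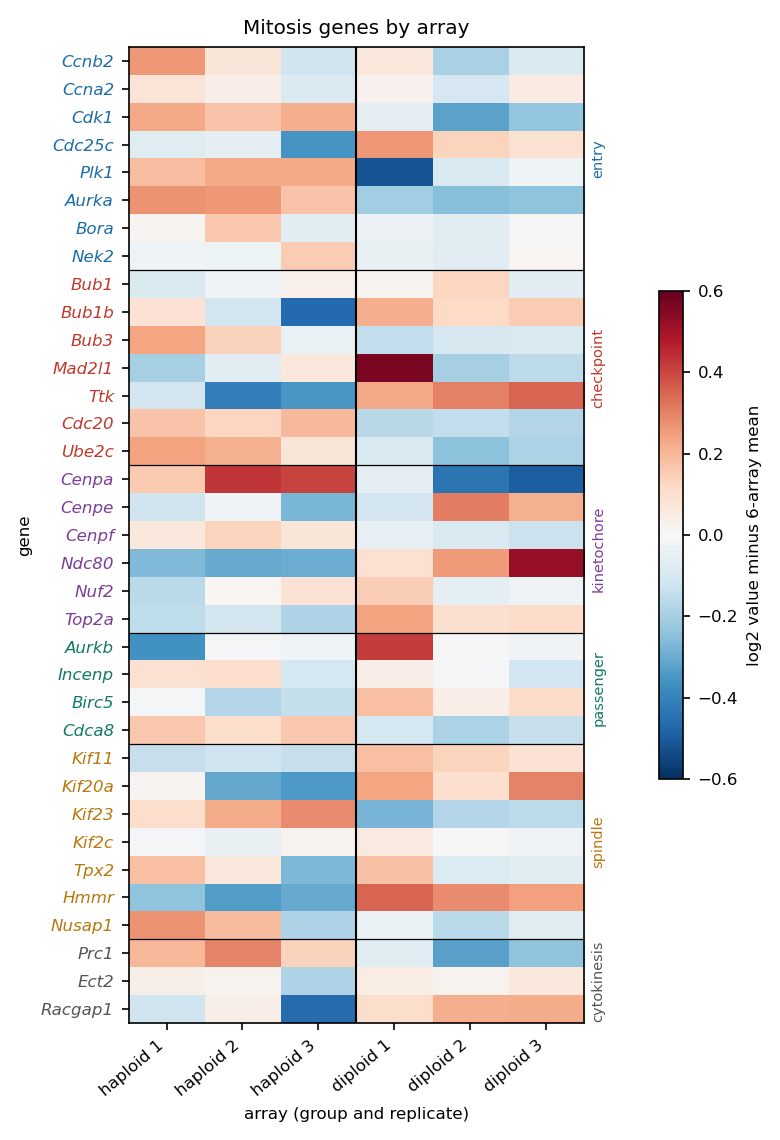
Log2 value of each of the 35 genes on each array minus that gene's mean over the 6 arrays, as colour (scale to the right, clipped at 0.6 in both directions); columns are haploid replicates 1 to 3 and diploid replicates 1 to 3, and rows are grouped by function. Each functional set holds genes with differences of both signs, and in mitotic entry 7 of 8 were above 0 and 1 below. Mad2l1 and Plk1 show diploid replicate 1 apart from the other diploid arrays.

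Among genes of mitotic entry, 2 of 8 rose (25%), none fell, and the median log2 difference was 0.11. Of genes above the median level, 12.7% were higher and 9.21% lower. Cdk1, the kinase that cyclins activate to start mitosis, stood at 12.60, 12.55 and 12.59 in the haploid lines, against 12.32, 12.05 and 12.14 in the diploid samples. All 3 haploid values lay above the diploid ones, the difference was 0.41 ± 0.10 (log2, SE, n = 3 per group), and the fold was 1.33 (limma adjusted p = 0.0375). Aurka, the kinase of spindle poles, had levels of 11.84, 11.83 and 11.74 in the haploid lines and of 11.36, 11.31 and 11.33 in the diploid samples. Its groups were also separate, at 1.39-fold (log2 0.47 ± 0.09, limma adjusted p = 0.0146). The other genes of this set did not pass. Plk1, the kinase that acts with Aurka, was at 11.15, 11.20 and 11.19 in the haploid lines and at 10.45, 10.88 and 10.94 in the diploid samples (difference 0.43 ± 0.14, limma adjusted p = 0.0889), with diploid replicate 1 the lowest. Bora, the cofactor through which Aurka activates Plk1, differed by 0.08, and Nek2, the kinase that separates centrosomes, by 0.06.

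The cyclins that bind Cdk1 did not pass. Ccna2 was at 12.03, 12.00 and 11.87 in the haploid lines and at 11.98, 11.86 and 12.01 in the diploid samples, with a difference of 0.02 and a 95% interval from -0.21 to 0.24 (intervals are not adjusted for the number of genes). Ccnb2 was at 12.47, 12.29 and 12.10 in the haploid lines, against 12.28, 12.02 and 12.13 in the diploid samples (difference 0.14, interval -0.16 to 0.45). By these probe sets both cyclins overlapped between the groups. A second Ccna2 probe set was lower in each haploid line and did not pass (difference -0.19, limma adjusted p = 0.216 over all probe sets). Cdc25c, the phosphatase that activates Cdk1, was lower in all 3 haploid lines (8.57, 8.59 and 8.30, against 8.91, 8.78 and 8.74 in the diploid samples), but with a limma adjusted p of 0.107.

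In the spindle checkpoint and APC/C set, 1 of 7 genes rose, 1 fell, and the median difference was -0.05. These shares were 14.3% each, against 12.7% higher and 9.21% lower among genes above the median level. Ttk (Mps1), the kinase that starts checkpoint signalling at kinetochores, was at 10.60, 10.29 and 10.36 in the haploid lines and at 10.94, 11.01 and 11.06 in the diploid samples. It was 1.5-fold lower (log2 -0.58 ± 0.11, limma adjusted p = 0.0171), with no overlap. Cdc20, the APC/C activator that the checkpoint inhibits, was at 13.05, 13.01 and 13.08 in the haploid lines and at 12.72, 12.74 and 12.71 in the diploid samples, 1.26-fold higher (log2 0.33 ± 0.08, limma adjusted p = 0.0398). The groups did not overlap, and the SD of the diploid samples, 0.01, was the smallest of the 35 genes. Ube2c, an E2 enzyme that works with the APC/C, was higher in all haploid lines (13.65, 13.62 and 13.48, against 13.31, 13.16 and 13.21 in the diploid samples), at 1.28-fold, and did not pass (limma adjusted p = 0.0516).

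The remaining checkpoint genes did not pass. Bub1b (BubR1), part of the inhibitory complex, was lower in each haploid line (11.61, 11.41 and 11.05, against 11.74, 11.64 and 11.67 in the diploid samples), and haploid replicate 3 stood lowest (difference -0.33, limma adjusted p = 0.184). A second Bub1b probe set was also lower in each haploid line, by -0.66, and did not pass (limma adjusted p = 0.0577 over all probe sets). Bub3, its partner, was higher in each haploid line (12.70, 12.60 and 12.42, against 12.31, 12.36 and 12.37 in the diploid samples; difference 0.22, limma adjusted p = 0.188). Bub1, the kinetochore kinase, differed by -0.05 (interval -0.28 to 0.17). Mad2l1, the checkpoint protein that binds Cdc20, was at 12.04, 12.17 and 12.30 in the haploid lines and at 12.80, 12.04 and 12.08 in the diploid samples. It was 1 of 35 genes in which an array lay 1.5-fold or more from the mean of the other arrays of its group: diploid replicate 1 was higher than the other diploid samples by 0.75 (log2). With all arrays Mad2l1 differed by -0.14 (limma adjusted p = 0.695), and without diploid replicate 1 by 0.11 (limma adjusted p = 0.558).

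Mad2l1 lies on chromosome 6. After each gene was centred on its mean over all arrays, the median of the chromosome 6 genes above the median level, minus that of all such autosomal genes, was -0.04 to 0.00 in the haploid lines, and it was 0.29 in diploid replicate 1 and -0.11 and -0.10 in diploid replicates 2 and 3. Diploid replicate 1 was also the highest diploid sample for the chromosome 6 genes Ncapd2, a condensin subunit (11.68, against 11.03 and 11.01 in the other diploid samples), and Cdca3, a mitotic regulator (12.67, against 11.92 and 11.97 in the other diploid samples), both chosen after their values were seen. The part of chromosome 6 in the level of Mad2l1 was not tested.

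At the kinetochore and on the chromosome, 1 of 6 genes rose, 1 fell, and the median was -0.16. Each share was 16.7%, against 12.7% higher and 9.21% lower among genes above the median level. Cenpa, the histone H3 variant that marks centromeres, was at 12.43, 12.70 and 12.68 in the haploid lines and at 12.22, 11.84 and 11.78 in the diploid samples. It showed the largest increase of the 35 genes, 1.58-fold (log2 0.66 ± 0.15, limma adjusted p = 0.0277), with no overlap. Ndc80, the microtubule-binding subunit of the outer kinetochore, was at 8.86, 8.82 and 8.83 in the haploid lines and at 9.22, 9.38 and 9.65 in the diploid samples, 1.49-fold lower (log2 -0.58 ± 0.12, limma adjusted p = 0.0253). Nuf2, its direct partner in the same complex, did not pass, at 9.14, 9.31 and 9.39 in the haploid lines and at 9.45, 9.24 and 9.26 in the diploid samples (difference -0.04, interval -0.30 to 0.22). Cenpf, a late G2 kinetochore protein, was higher in each haploid line by a small amount (0.18, limma adjusted p = 0.196). Cenpe, the kinesin that congresses chromosomes, overlapped between the groups by its brightest probe set (-0.27, limma adjusted p = 0.224).

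Top2a, the topoisomerase that untangles sister chromatids, was lower in every haploid line, at 12.89, 12.93 and 12.86, against 13.29, 13.14 and 13.16 in the diploid samples (difference -0.30 ± 0.09, limma adjusted p = 0.0654). The chromosomal passenger complex corrects faulty attachments. In limma 0 of its 4 genes passed in either direction, against 12.7% higher and 9.21% lower among genes above the median level. Its kinase Aurkb was at 9.55, 9.90 and 9.88 in the haploid lines and at 10.33, 9.92 and 9.89 in the diploid samples, so that haploid replicate 1 and diploid replicate 1 stood at opposite ends and the other arrays lay close together. Birc5 (survivin) was lower in each haploid line (12.18, 12.02 and 12.05, against 12.37, 12.23 and 12.30 in the diploid samples; difference -0.22, limma adjusted p = 0.162). Cdca8 (borealin) was higher in each haploid line (12.60, 12.54 and 12.60, against 12.33, 12.25 and 12.30 in the diploid samples; difference 0.29, limma adjusted p = 0.064). Incenp, the scaffold, differed by 0.06 by its brightest probe set (interval -0.18 to 0.30). The 4 subunits therefore had differences of both signs.

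Among spindle motors and assembly factors 1 of 7 rose, 1 fell, and the median was -0.02. Each share was 14.3%, against 12.7% higher and 9.21% lower among genes above the median level. Hmmr, a microtubule-binding protein of the spindle, was at 11.31, 11.22 and 11.25 in the haploid lines and at 11.90, 11.83 and 11.80 in the diploid samples, 1.5-fold lower (log2 -0.59 ± 0.09, limma adjusted p = 0.00745). It had the smallest adjusted p of the 35 genes. Kif23 (MKLP1), the kinesin of the centralspindlin complex, was at 10.80, 10.91 and 10.97 in the haploid lines and at 10.41, 10.52 and 10.54 in the diploid samples, 1.32-fold higher (log2 0.41 ± 0.09, limma adjusted p = 0.0321). Kif20a (MKLP2), which relocates the passenger complex at anaphase, was lower in each haploid line (10.87, 10.55 and 10.51, against 11.09, 10.96 and 11.15 in the diploid samples; difference -0.42 ± 0.13, limma adjusted p = 0.0671). Without haploid replicate 1 it differed by -0.54 and passed (limma adjusted p = 0.0305). Kif11 (Eg5), which pushes spindle poles apart, was at 10.29, 10.31 and 10.29 in the haploid lines, against 10.61, 10.56 and 10.52 in the diploid samples (difference -0.27, limma adjusted p = 0.0776). Kif2c (MCAK), which removes wrong attachments, differed by -0.02 (interval -0.22 to 0.18). Tpx2, the activator of Aurka on the spindle, differed by -0.02, and Nusap1, a microtubule bundler, by 0.18.

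In cytokinesis, Prc1, which bundles microtubules of the central spindle, was at 11.51, 11.61 and 11.45 in the haploid lines and at 11.24, 10.99 and 11.07 in the diploid samples, 1.34-fold higher (log2 0.42 ± 0.11, limma adjusted p = 0.0396). Racgap1, the partner of Kif23 in centralspindlin, was lower in each haploid line at 10.43, 10.59 and 10.09, against 10.66, 10.77 and 10.78 in the diploid samples (difference -0.36 ± 0.14, limma adjusted p = 0.128). By these probe sets the 2 subunits of centralspindlin had differences of opposite sign, although only that of Kif23 passed. A second Racgap1 probe set differed by -0.10 and overlapped between the groups (limma adjusted p = 0.633 over all probe sets). Ect2, the activator of RhoA that centralspindlin recruits, differed by -0.09 (interval -0.32 to 0.14).

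**Figure D3:**
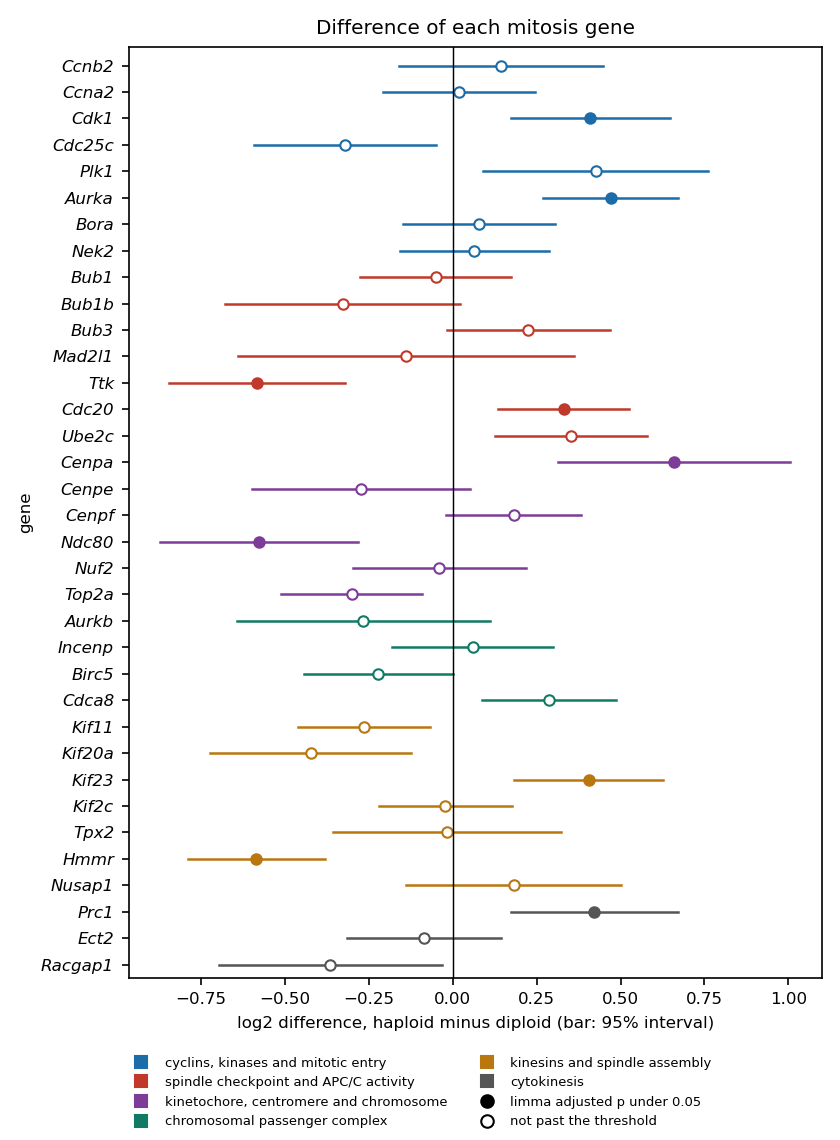
Log2 difference, haploid minus diploid (horizontal axis), of each of the 35 genes with its 95% interval from limma's moderated test, not adjusted for the number of genes; filled points passed an adjusted p of 0.05. The 9 filled points are 6 to the right of 0 (Cdk1, Aurka, Cdc20, Cenpa, Kif23 and Prc1) and 3 to the left (Ttk, Ndc80 and Hmmr), and several open points have intervals that do not reach 0.

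The 9 calls rested on small differences and on the full set of arrays. Hmmr alone passed when any 1 array was left out (limma adjusted p = 0.0166 to 0.0357). Aurka did not pass without haploid replicate 2 (0.0539), diploid replicate 2 (0.0578) or diploid replicate 3 (0.0624), and Ttk not without the same arrays (0.0576, 0.0631 and 0.0733). Cenpa passed without haploid replicate 1 (0.0319) and without diploid replicate 1 (0.0153) and not without any other (0.0693 to 0.103). Cdk1 (0.0282), Prc1 (0.0329) and Ndc80 (0.0196) passed only without diploid replicate 1, Kif23 only without haploid replicate 1 (0.0407), and Cdc20 in none of these fits (0.0696 to 0.124). The signs of all 9 stayed when any 1 array was left out. With array medians aligned, 2 members were higher (Aurka and Cenpa) and 5 lower, against 6 and 3 in the values as deposited, so that the balance of directions depended on the scaling.

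**Figure D4:**
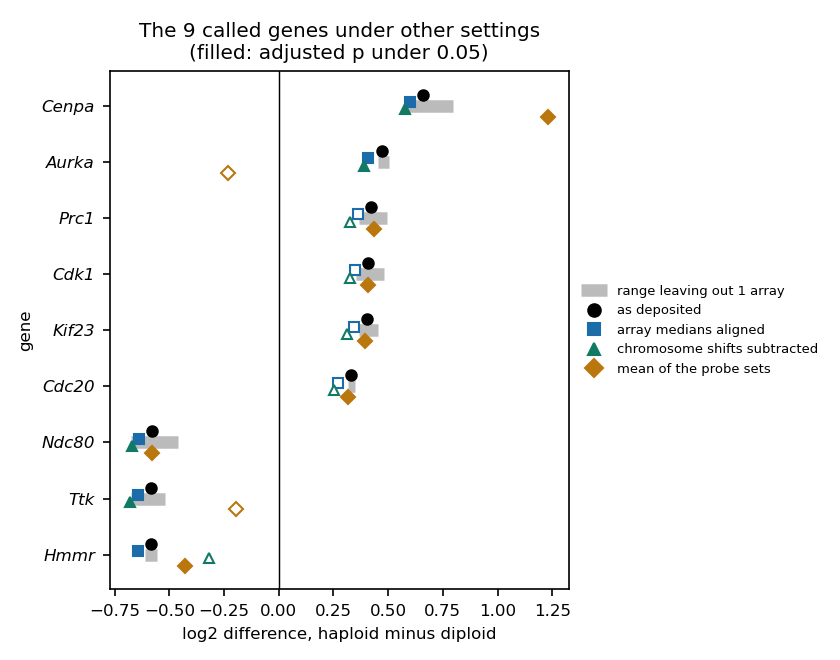
Log2 difference, haploid minus diploid (horizontal axis), of the 9 genes that passed, as deposited and under 3 other settings, with the range over the 6 fits that leave out 1 array as a grey bar; filled symbols passed an adjusted p of 0.05. Aurka and Ttk move towards or past 0 with the mean of their probe sets, which takes in a dimmer probe set of each, Cenpa moves to 1.23, and Hmmr moves to -0.32 with chromosome shifts subtracted.

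Chromosome 11 held 4 of the 35 genes, Hmmr, Top2a, Aurkb and Birc5, and none of the 35 lay on chromosome 8 or X. All 4 were lower in the haploid lines by mean level (differences from -0.59 to -0.22, median -0.28), and 1 of them passed. Top2a differed by -0.30, and the 792 genes of chromosome 11 above the median level had a median difference of -0.27. On chromosome 8 this median was -0.32 (505 genes) and on X it was 0.77 (297 genes). With each chromosome's median difference subtracted, Hmmr differed by -0.32 (limma adjusted p = 0.0508), Aurkb by 0.00 and Birc5 by 0.05. The part of the chromosome-wide shift in these genes was not tested. Over the 31 genes on other chromosomes, 6 rose (19.4%) and 2 fell (6.45%), and the median difference was 0.06. Among genes above the median level 12.7% were higher and 9.21% lower. The same subtraction also takes off small positive shifts of several other autosomes. After it Aurka and Cenpa stayed higher, Ttk and Ndc80 stayed lower, and Kif11, which had not passed before, passed as lower. The limma adjusted p was then 0.0698 for Cdk1, 0.0815 for Cdc20, 0.068 for Kif23 and 0.0793 for Prc1.

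Several of the genes had more than 1 probe set. The 35 genes had 84 probe sets, of which 11 were called higher and 11 lower when each was tested on its own. Of all 34945 probe sets, 2459 (7.04%) were called higher and 2228 (6.38%) lower. Since 67 of the 84 lay above the median probe set level, these counts are not matched for level. For 21 genes 2 or more probe sets lay above the median probe set level of 6.83; the differences had 1 sign in 17 of them and both signs in 4, and in none were probe sets called in opposite directions. Hmmr had 4 probe sets called lower, between -0.59 and -0.42, and a dimmer one at -0.06. Kif23 (0.41 and 0.64), Prc1 (0.42 and 0.45) and Cdc20 (0.33 and 0.36) each had a pair of probe sets called higher.

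Other genes showed probe sets that differed in size. A second Cenpa probe set was at 8.63, 9.12 and 8.75 in the haploid lines and at 5.50, 5.51 and 5.56 in the diploid samples, a difference of 3.31 ± 0.14 (limma adjusted p = 0.000377 over all probe sets), against 0.66 for the brightest one. What part of the transcript this probe set reads was not examined. A second Cenpe probe set was lower in the haploid lines at 8.42, 8.44 and 8.34, against 9.24, 9.47 and 9.36 in the diploid samples (-0.96, limma adjusted p = 0.00305), while the brightest did not pass. For Tpx2, whose brightest probe set differed by -0.02, a pair of dimmer ones were called lower at -0.77 and -0.68. Incenp had 1 probe set called higher (0.76), Kif11 1 called lower (-0.59) and Cenpf 1 called lower (-0.52). A dim probe set of Bub1 was at 5.28, 7.63 and 7.15 in the haploid lines and at 5.19, 5.24 and 5.05 in the diploid samples, so that only haploid replicates 2 and 3 were raised (difference 1.53, limma adjusted p = 0.108).

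**Figure D5:**
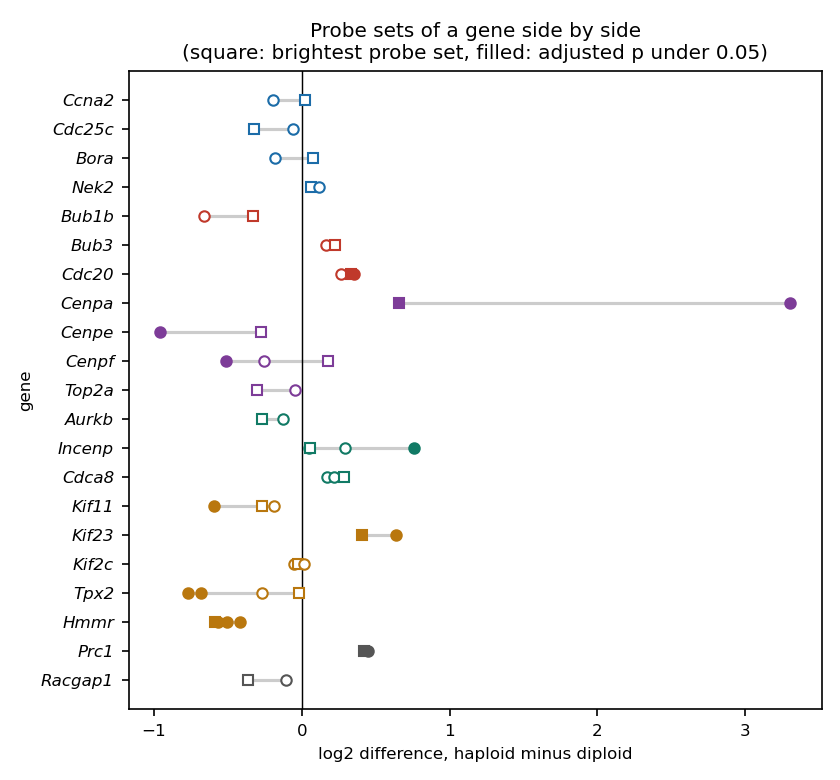
Log2 difference, haploid minus diploid (horizontal axis), of every probe set above the median level for the 21 genes with 2 or more of them; squares are the brightest probe set of a gene, and filled symbols passed an adjusted p of 0.05 over all probe sets. Hmmr, Kif23, Prc1 and Cdc20 have probe sets close together, and Cenpa spans 0.66 to 3.31.

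Within the groups, the arrays differed from each other by about 0.1 (log2) for a typical member. The median SD of the 35 genes was 0.10 among the haploid lines and 0.08 among the diploid samples, against 0.15 and 0.13 for genes above the median level. Haploid replicate 3, the transgenic line HTG1, was the lowest haploid array for 18 of 35 genes (51.4%, against 39% of genes above the median level), among them Bub1b, Racgap1, Nusap1 and Tpx2. Nusap1 was at 11.45 and Tpx2 at 10.57 in HTG1, against 11.90 and 11.82 for Nusap1 and 11.01 and 10.90 for Tpx2 in HAP1 and HAP2. Diploid replicate 1 was the highest diploid array for 21 of 35 genes (60%, against 45.7%). Diploid replicate 2 was the lowest diploid array for 18 of 35 (51.4%, against 36%) and the highest for 3 (8.57%, against 26%). The members' median on each array, after centring each gene, was 0.03, 0.04 and -0.06 in the haploid lines and 0.04, -0.06 and -0.03 in the diploid samples, so that these ranges overlapped.

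Of 129 other genes of mitosis listed by function, 127 were measured; 11 rose (8.66%), 9 fell (7.09%), and the median difference was -0.06. Of these 127 genes 121 lay above the median level, where 12.7% of genes were higher and 9.21% lower. Pttg1 (securin), the inhibitor of separase that the APC/C destroys at anaphase, rose 2.37-fold. It was at 14.34, 13.62 and 14.26 in the haploid lines and at 13.08, 12.68 and 12.73 in the diploid samples (log2 1.24 ± 0.21, limma adjusted p = 0.0119), and the adjusted p was 0.0506 with diploid replicate 2 left out and 0.0582 with diploid replicate 3 left out. Pttg1 is on chromosome 11 and rose against the direction of that chromosome. Among APC/C subunits Anapc7 rose (0.49, and 0.22 with its probe sets averaged, limma adjusted p = 0.173), while Anapc2 (-0.54) and Cdc16 (-0.42) fell, 2 of 19 genes of that list higher and 2 lower. Cdc16, on chromosome 8, differed by -0.10 with chromosome shifts subtracted and did not pass (limma adjusted p = 0.445), nor with its probe sets averaged (-0.20, limma adjusted p = 0.185).

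Of 34 other kinetochore and checkpoint genes, 4 rose (11.8%) and 3 fell (8.82%), near the 12.7% and 9.21% of genes above the median level. Cenpm, a subunit of the constitutive centromere network, was at 10.75, 10.87 and 10.74 in the haploid lines and at 10.22, 9.76 and 10.00 in the diploid samples, 1.73-fold higher (limma adjusted p = 0.0113, and 0.0526 without diploid replicate 3). Cenpp, another subunit, rose by 0.69 and Cenpi by 0.81; Cenpi is X-linked and differed by 0.05 with the shift of the X subtracted (limma adjusted p = 0.759). With the mean of its probe sets Cenpp differed by 0.30 and did not pass (limma adjusted p = 0.124). The other increase was Zwint (0.43), which joins the outer kinetochore to the checkpoint, and whose probe sets, averaged, did not pass (0.32, limma adjusted p = 0.0519). The 3 genes that fell, Spdl1 (-0.68), Mis12 (-0.60) and Ska2 (-0.47), all lie on chromosome 11, and none passed with chromosome shifts subtracted (limma adjusted p = 0.0663, 0.156 and 0.178). Zwint, Mis12 and Ska2 are named to complete these counts.

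In cohesin and condensin 2 of 20 genes rose (10%) and 1 fell (5%), against 12.7% and 9.21% of genes above the median level. Esco1, an acetyltransferase of cohesin, was at 9.44, 9.41 and 9.45 in the haploid lines and at 8.75, 8.82 and 8.74 in the diploid samples, 1.58-fold higher (limma adjusted p = 0.00489), although with the mean of its probe sets it differed by 0.17 (limma adjusted p = 0.268). The X-linked cohesin ring subunit Smc1a rose by 0.52, turning to -0.25 with the shift of the X subtracted (limma adjusted p = 0.0876) and 0.29 with its probe sets averaged (limma adjusted p = 0.122). Cdca5 (sororin), which keeps sister chromatids together, fell by 0.37 (limma adjusted p = 0.0332), and its averaged probe sets differed by -0.25 (limma adjusted p = 0.0849). Of 22 other mitotic kinases, phosphatases and transcription factors 2 rose (9.09%) and none fell. The 2 were Pkmyt1, which inhibits Cdk1 (0.45, limma adjusted p = 0.0373), and Lin37, a MuvB subunit (0.54, limma adjusted p = 0.026). Pkmyt1 did not pass with array medians aligned (limma adjusted p = 0.06), with chromosome shifts subtracted (0.0715) or with its probe sets averaged (0.115), where it differed by 0.25.

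Of 32 other kinesins, spindle and cytokinesis genes, 1 rose (3.13%) and 3 fell (9.38%), against 12.7% and 9.21% of genes above the median level. The largest decrease was that of Ckap2l, a spindle protein, at 8.69, 8.55 and 8.42 in the haploid lines and 9.68, 9.46 and 9.43 in the diploid samples, 1.96-fold lower (limma adjusted p = 0.00413), and it passed when any 1 array was left out and with its probe sets averaged, where it differed by -0.54. Ckap5, a microtubule polymerase, differed by -0.43 and Dlgap5, a spindle stabiliser, by -0.45 and both passed, but with the mean of their probe sets they differed by -0.03 and 0.06. Kif4, an X-linked kinesin of the spindle midzone, rose by 0.76, and with the shift of the X subtracted differed by -0.01. Of the 5 X-linked genes among these 127, 3 rose (Cenpi, Smc1a and Kif4), and none of the 3 passed with that shift subtracted. The 297 X-linked genes above the median level had a median difference of 0.77, and its part in these 3 was not tested. Of the 20 other mitosis genes that passed with all arrays, Cenpi, Esco1, Ckap2l and Kif4 passed when any 1 array was left out, and Anapc2 (limma adjusted p = 0.0555 to 0.151), Cdc16 (0.0515 to 0.0832) and Cdca5 (0.0561 to 0.109) passed in none of these fits. The other 13 passed in some of these fits and not in others.

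Genes of G1/S and S phase were counted beside the mitotic ones. Of 25 measured, 1 rose (4%) and 4 fell (16%), against 7.92% and 6.96% of all genes and 12.7% and 9.21% of genes above the median level, and their median difference was -0.18, against -0.02 for the 35 mitosis genes. The increase was Tyms, which makes thymidylate (1.10), and the decreases were the replication licensing genes Mcm5 (-0.59), Cdt1 (-0.57) and Cdc6 (-0.47) and the DNA methylation cofactor Uhrf1 (-0.51), all named after their values were seen. Mcm5 and Cdt1 lie on chromosome 8 and Cdc6 on chromosome 11, and with chromosome shifts subtracted Mcm5 (-0.27, limma adjusted p = 0.108), Cdt1 (-0.26, 0.12) and Cdc6 (-0.20, 0.267) did not pass. The Tyms probe set lay below the median level of all genes, at 6.63, 6.75 and 6.09 in the haploid lines. In the diploid samples it was at 5.42, 5.78 and 4.96. Tyms, with its probe sets averaged, differed by 0.31 and did not pass (limma adjusted p = 0.0695). Pcna, the DNA polymerase clamp, differed by -0.16 (limma adjusted p = 0.315) and Mcm7, a helicase subunit, by 0.11 (limma adjusted p = 0.446).

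Markers of the cells were checked beside these results. All 7 markers of undifferentiated ES cells lay above the median level of all genes, with a summed linear level of 68200 to 70690 in the haploid lines and 55330 to 56930 in the diploid samples. Of these 7, Pou5f1, Nanog and Klf4 rose in haploid cells (42.9%, against 12.7% of genes above the median level) and none fell. All 9 markers of fibroblasts, the cells used as feeders, were lower in the haploid lines by mean level. Of them 1 passed (Col1a2, 11.1%, against 6.96% of all genes), and 0 of 9 lay above the median level of all genes. Their summed level was 490.4 to 607 in the haploid lines and 980.9 to 1714 in the diploid samples, highest in diploid replicate 1, where Col3a1 was at 8.0, against 5.17 and 4.90 in the other diploid samples. Their part in the mitosis genes was not tested. Of 6 primitive endoderm markers none passed, and of 7 trophoblast markers 1 was higher (14.3%, against 7.92% of all genes). The difference between the 3' and 5' control probe sets of beta-actin was 0.18, 0.24 and 0.24 in the haploid lines and 0.46, 0.38 and 0.34 in the diploid samples, so that RNA measures moved with the groups; their part in the results was not tested.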

How the data were processed

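Total RNA from 6 samples was hybridised as biotin-labelled target, 1 array each. The log2 levels deposited by the authors come from RMA, as named in the submitters' processing notes. RMA usually includes background correction and quantile normalization, so every difference is relative to the bulk of genes. Software, settings and genome build are not given in the sources used here.

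Of 45101 probe sets, 64 controls were left out; GEO's platform annotation gave 34945 one symbol, 932 several and 9160 none. A gene was its brightest single-symbol probe set (18193 genes; chromosomes from RefSeq, GRCm38.p6). The test was limma 3.58.1 (R 4.3.3; lmFit and eBayes, two-sided, no covariate or dim filter; every adjusted p is from limma with Benjamini-Hochberg). SE is moderated. On simulated data with 18193 genes, 68% of log2 changes of 1 and 93% of changes of 2 were recovered. Changes of the size seen in the members (-0.59 to 0.66) were not simulated, and fewer genes were changed than were called here. The recovery for the members is therefore not known. The number of arrays limits the precision. The members and the lists were chosen with earlier results of these data known. All members were named; from each other list, the genes past the threshold were ranked by size of change and up to 4 taken, or else the 2 brightest. Genes named outside this are marked. Alternatives were other scalings, chromosome shifts subtracted, other probe set choices, a dim filter, trend and robust eBayes, array weights, a 1.5-fold threshold and omission of each array.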

Additional observations from a re-analysis of the deposited data

How the results depend on the processing

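Against 6 members higher and 3 lower, aligning the array medians gave 2 higher and 5 lower. There were 2 higher with chromosome shifts subtracted, 8 higher and 5 lower among genes above the median level, 8 higher and 4 lower both with trend and robust eBayes and with array weights, and 1 higher and 1 lower at 1.5-fold. Leaving out 1 array gave 0 to 4 higher and 1 to 3 lower members, 3 to 11 higher and 1 to 6 lower other mitosis genes, and 571 to 1395 higher and 399 to 1082 lower genes in all. A 1.5-fold threshold left 6 higher and 3 lower other mitosis genes and 728 lower genes. The members' median was -0.077 with array medians aligned and -0.086 with the mean of the probe sets, and -0.039 to 0.058 with 1 array left out. These settings change the scaling, the arrays or the threshold, and the cause of each change was not tested.

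Among the 9 called genes, Aurka turned to -0.23 (limma adjusted p = 0.327) and Ttk came to -0.20 (0.484) with the mean of the probe sets, and Hmmr came to -0.06 (0.926) without probe sets whose names end in x, s or a, which leaves only its dim probe set. Cdc20 had 0.0517 after another quantile normalization, and Cdk1, Kif23, Prc1 and Cdc20 had 0.0556, 0.0507, 0.0547 and 0.0788 with array medians aligned. None of the following passed in either setting. Ccna2 turned to -0.041 with array medians aligned, -0.035 after another quantile normalization, -0.0074 with chromosome shifts subtracted and -0.086 with the mean of the probe sets, and ran from -0.027 to 0.067 with 1 array left out. With the mean of the probe sets Bora turned to -0.053, Bub1 to 0.74 and Cenpf to -0.20. Bora was at -0.013 after quantile normalization and Incenp at -0.0015 with array medians aligned. With chromosome shifts subtracted Nek2 turned to -0.022, Aurkb to 0.0010 and Birc5 to 0.046. With 1 array left out, Mad2l1 ran from -0.27 to 0.11, Nuf2 from -0.095 to 0.030 and Tpx2 from -0.11 to 0.11. Tpx2 was at 0.062 with array weights. Of the called other genes, Cdc16 turned to 0.020 without probe sets whose names end in x, s or a, Dlgap5 to 0.064 with the mean of the probe sets, and Smc1a to -0.25 and Kif4 to -0.0084 with chromosome shifts subtracted.

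No paired analysis was possible because the numbers of the haploid lines were given only to name them and pair no samples across the groups.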

Other observations

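Some of the 127 other mitosis genes had an array that lay 1.5-fold or more from the mean of the other arrays of its group. Mybl2, a transcription factor of late cell cycle genes, was at 11.94, 12.01 and 12.16 in the haploid lines and at 10.65, 11.65 and 11.60 in the diploid samples, so that diploid replicate 1 was the lowest (difference 0.74, limma adjusted p = 0.105). Foxm1, which acts on the same promoters, differed by 0.07 (limma adjusted p = 0.686). Haploid replicate 2 (HAP2) was lower than the mean of the other haploid lines by 0.68 for Pttg1, by 0.85 for Ube2s, an E2 enzyme of the APC/C, by 0.72 for the phosphatase Cdc25a and by 0.80 for the histone kinase Haspin. These genes were chosen after their values were seen, and no test was made between single arrays.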
